A study of Mus musculus with 3 samples.

Results

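The immunity-related GTPases are a family of interferon-induced genes, of which 6 were followed here across the cells of the mouse bone marrow niche. The members were Irgm1, Irgm2, Igtp, Iigp1, Tgtp1 and Tgtp2, chosen by gene symbol, and they are 6 of the 27998 genes listed in the deposited matrices. Their counts of unique molecular identifiers (UMIs, each standing for 1 captured RNA molecule) were summed in cell classes defined by marker genes and set against empty droplets, which hold free RNA only. Single-cell RNA was measured in 3 libraries of sorted marrow niche cells, 1 library per group, so each fold below describes a pair of libraries with no replicate check.

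All recipient and untreated mice were female CB6F1. The aGVHD group (acute graft-versus-host disease) was irradiated with 4.0 Gy in each of 2 doses, received B6.SJL marrow cells 4 hours afterwards, and was also given spleen cells from female C57BL/6 donors. The BMT group (bone marrow transplantation) had the same irradiation and marrow without spleen cells. The WT group was left untreated. Blood cells in the aGVHD and BMT libraries may therefore come from donors of another strain, and their origin was not tested. Before loading, CD45-positive, lineage-positive and CD71-positive cells were sorted away in every group, and Calcein AM with DAPI picked live cells. The sources used here do not state how many mice made up a library or how many days had passed since transplantation. With 1 library per group, the treatment and any technical difference between libraries cannot be told apart.

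Immunity-related GTPases protect cells against bacteria and parasites that live inside membrane vacuoles. Interferon gamma switches their genes on, and the effector proteins, Iigp1 (also called Irga6) and Tgtp1 and Tgtp2 (also called Irgb6), gather on the vacuole membrane and break it. The regulators of the GMS group, Irgm1, Irgm2 and Igtp (also called Irgm3), sit on the cell's own membranes and keep the effectors inactive there.

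Of the 6 genes, all protein-coding, 5 lie on chromosome 11 (GRCm38, GENCODE annotation). Irgm1 (ENSMUSG00000046879) spans chr11:48861968-48871683 on the minus strand, followed on that strand by Tgtp1 (ENSMUSG00000078922, chr11:48985327-48994172) and Tgtp2 (ENSMUSG00000078921, chr11:49057194-49064206). Igtp (ENSMUSG00000078853, chr11:58199556-58207591) and Irgm2 (ENSMUSG00000069874, chr11:58199618-58222782) overlap on the plus strand.

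The promoters of these 5 members matched the RefSeq promoter table (GRCm38.p6), and a stretch of 50 bases from each is shown because 4 of them share the same pair of interferon motifs there. Capitals mark matches to GAAA, any 2 bases and GAAA again, the core of the interferon-stimulated response element (ISRE-type, searched on both strands), and to TTCNNNGAA, the gamma-activated site of interferon gamma targets (GAS-type). Each line runs 5′ to 3′ on the gene's own strand.
Irgm1 (chr11:48871431-48871480, minus): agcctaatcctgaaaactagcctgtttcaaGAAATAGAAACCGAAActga
Irgm2 (chr11:58214883-58214932, plus): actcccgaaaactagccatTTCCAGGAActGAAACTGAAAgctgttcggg
Igtp (chr11:58199492-58199541, plus): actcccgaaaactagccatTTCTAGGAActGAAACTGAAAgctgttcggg
Tgtp1 (chr11:48992304-48992353, minus): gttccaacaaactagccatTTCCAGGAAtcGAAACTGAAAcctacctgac
Tgtp2 (chr11:49064263-49064312, minus): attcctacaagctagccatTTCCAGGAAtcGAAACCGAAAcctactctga

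In Irgm2, Igtp, Tgtp1 and Tgtp2 a GAS-type match is followed, 2 bases on, by an ISRE-type match. Irgm1 instead carries 2 overlapping ISRE-type matches and no GAS-type match in its window. Of 32851 promoters in the table, 3.44% hold an ISRE-type match, 8.30% hold a GAS-type match, and 0.161% (53 promoters) hold both within 20 bases of each other. Starts are those of the promoter table and can differ from the gene spans given above. The windows of Irgm1, Irgm2 and Tgtp1 lie inside those spans. A match is a description of letters, not evidence of binding in these cells.

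**Figure D1:**
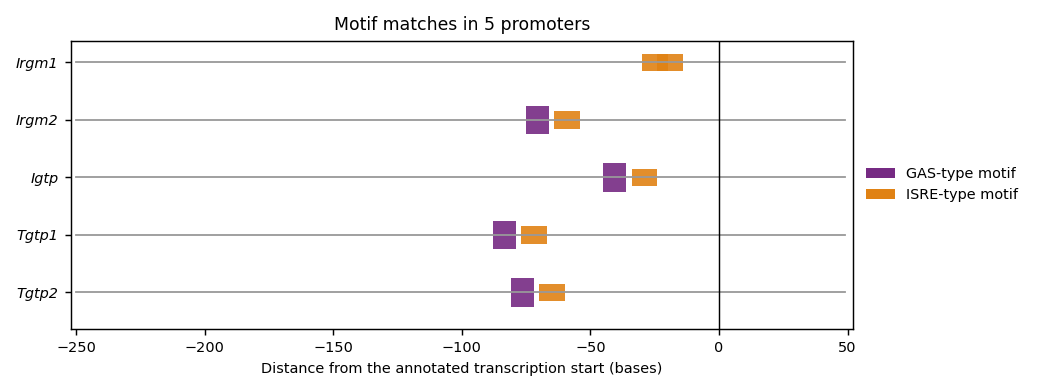
Motif matches in the promoters of 5 members, from 250 bases before to 50 bases after the start in the promoter table (x axis, bases from the start). Purple boxes are GAS-type and orange boxes ISRE-type matches, and 4 of the 5 promoters show the purple and orange pair side by side.

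Close copies limit which member a read can be given to. The transcripts of Tgtp1 and Tgtp2 were 99.8% identical over 2810 bases, with 6 mismatches, the nearest of them 1041 bases from the 3′ end. Over the last 500 bases, every 90-base window was shared between them, so the split of UMIs between Tgtp1 and Tgtp2 is uncertain and their sum is given as well. Iigp1 and its copy Gm4951 were 89.0% identical over 2219 aligned bases and shared 0 windows of 90 bases. Igtp and Irgm2 shared 162 exon bases on the same strand, which is 8.01% of Igtp and 4.39% of Irgm2 exon bases, and Tgtp1 shared 223 exon bases with Gm12185. Over the whole Tgtp1 transcript, 81.9% of 90-base windows were shared with Tgtp2. The sources used here do not say how reads that match several genes were treated. If such reads were left out, the sum of Tgtp1 and Tgtp2 and its part of the family are too low as well.

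The libraries held 67439098 UMIs (aGVHD), 44219063 (BMT) and 86575425 (WT). Barcodes that reached 1000 UMIs and 500 genes with mitochondrial UMIs below 10% numbered 5568, 3621 and 7129 in the same order, and 70.7%, 77.9% and 73.2% of them passed exactly 1 of 16 marker gates. Between 8 and 11 called barcodes were shared by any pair of libraries and 0 by all 3. The 2 classes with the most barcodes in their smallest library were LepR stromal cells, the Cxcl12-rich reticular cells of the marrow (391 barcodes in aGVHD, 576 in BMT and 1003 in WT), and endothelial cells, which line vessels (1047, 726 and 451). Outside the gate markers, Esm1, Cxcl9 and Gdpd2 led the LepR gate, and the endothelial genes Gpihbp1, Flt1 and Cldn5 were among the first of the endothelial gate. Exactly at the marker minimum or the lead their gate asks for were 12.3% (aGVHD), 9.72% (BMT) and 7.38% (WT) of LepR stromal barcodes and 32.3%, 24.0% and 25.9% of endothelial ones. Levels are in CPM, the UMIs of a gene divided by those of its whole class on the usual scale, with 95% intervals that cover counting error only.

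In LepR stromal cells all 6 genes stood far higher in both transplanted libraries than in WT. The 6 genes summed to 3398 CPM (95% interval 3347 to 3450) in aGVHD, 2976 (2939 to 3013) in BMT and 224 (212 to 236) in WT. BMT was 13.3-fold higher than WT (12.6 to 14.0), while aGVHD was 1.14-fold higher than BMT (1.12 to 1.16). The aGVHD and BMT levels thus lay close together, and both lay far from WT.

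The regulators were all higher in aGVHD than in BMT in LepR stromal cells, by less than 2-fold. Irgm1, which also serves autophagy and the survival of blood stem cells under interferon, was at 251 CPM in aGVHD, 163 in BMT and 17.4 in WT. Irgm2 was at 172, 125 and 17.7 CPM in the same libraries, and Igtp, a regulator found on lipid droplets and the endoplasmic reticulum, at 326, 196 and 11.2 CPM. All 3 were highest in aGVHD and lowest in WT. The aGVHD over BMT folds were 1.54 (1.43 to 1.67) for Irgm1, 1.38 (1.26 to 1.51) for Irgm2 and 1.67 (1.56 to 1.79) for Igtp. BMT over WT, they were 9.35 (7.69 to 11.5), 7.04 (5.79 to 8.64) and 17.5 (13.8 to 22.6). Both comparisons use the BMT library, so their folds are not independent.

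Iigp1 (ENSMUSG00000054072, plus strand, chr18:60376027-60392634), an effector that coats parasite vacuoles, carried most of the family's UMIs in this class. It was at 2516 CPM in aGVHD, 2280 in BMT and 170 in WT, so that BMT was at 13.4 times the WT level (12.6 to 14.2) and aGVHD at 1.10 times the BMT level (1.08 to 1.13). Its share of the 6-gene UMIs hardly moved, at 74.0% in aGVHD, 76.6% in BMT and 76.2% in WT.

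Tgtp2 went the other way from the regulators in aGVHD. Tgtp2 was at 121 CPM in aGVHD, 203 in BMT and 7.01 in WT, so that aGVHD was 1.68-fold below BMT (1.53 to 1.85) and BMT 28.9-fold above WT (21.5 to 40.0). Tgtp1 had 61 UMIs in aGVHD, 87 in BMT and 0 in WT. At 12.3 and 10.2 CPM, Tgtp1 in aGVHD and BMT did not differ beyond counting error (1.20-fold, 0.851 to 1.68). Against a floor of 3 UMIs in WT, Tgtp1 was at least 21.4-fold higher in BMT, and the lower limit of the exact counting interval was 17.0-fold. Summed, Tgtp1 and Tgtp2 were at 133 CPM in aGVHD, 213 in BMT and 7.01 in WT, and the aGVHD sum was 1.60-fold lower than the BMT sum (1.47 to 1.76).

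**Figure D2:**
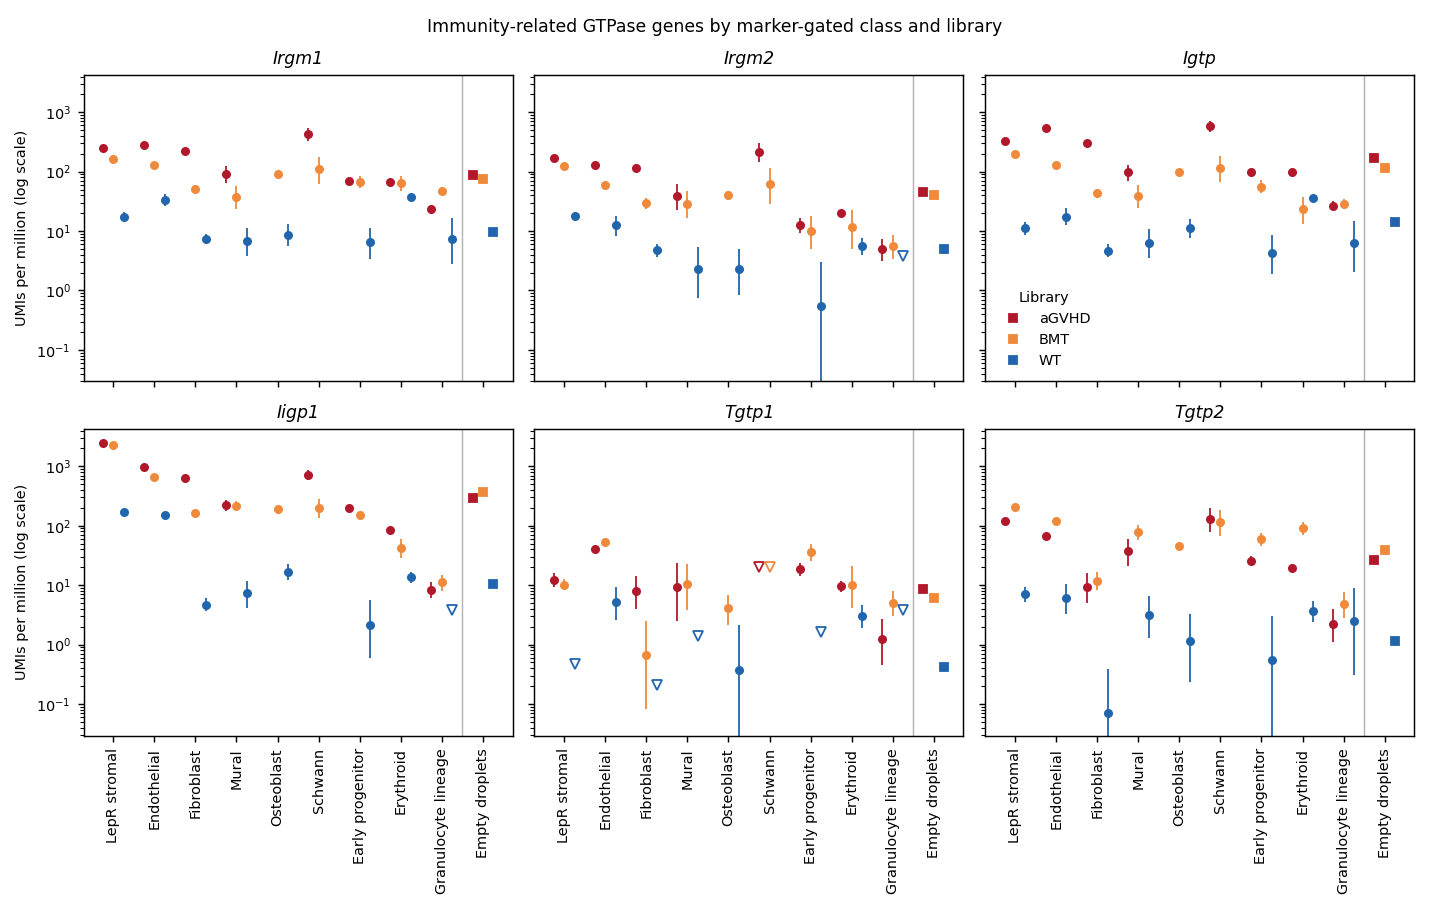
Level of each member (y axis, CPM, log scale) in 9 gated classes with 20 or more barcodes and in empty droplets (squares), for aGVHD, BMT and WT. Points carry 95% counting intervals and open triangles mark 0 UMIs, drawn at a floor of 3 UMIs. LepR stromal cells of aGVHD and BMT hold Iigp1 at 2516 and 2280, against 170 in WT.

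Free RNA was present for all 6 genes and was itself higher in the transplanted libraries. Droplets with at most 100 UMIs held the 6 genes at 636 CPM in aGVHD, 646 in BMT and 40.8 in WT. The LepR stromal sum was 5.35, 4.61 and 5.48 times those levels. For single members in the aGVHD and BMT libraries the ratio ran from 8.44 and 6.14 (Iigp1) to 1.41 and 1.68 (Tgtp1), and Igtp stood at 1.94 and 1.71. Haemoglobin genes, used as tracers of free RNA, put its part at 4.18% of LepR stromal UMIs in aGVHD, 1.53% in BMT and 11.5% in WT, while granule genes put it at 0.842% in aGVHD and 0.770% in WT. The 2 kinds of tracer were close in BMT and differed in aGVHD and WT, and which is nearer the true part was not tested. With the part subtracted, the BMT over WT fold of the family was 3.62 on the log2 scale by both kinds of tracer pooled and 3.74 by granule genes alone, against 3.73 without subtraction. The median of all measured genes in this class was itself shifted by -0.14 (aGVHD over BMT) and 0.13 (BMT over WT) on the log2 scale.

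The granulocyte lineage served as a class with low levels of the effectors. Its 626 aGVHD barcodes held Iigp1 at 8.39 CPM and its 695 BMT barcodes at 11.1 CPM, while 87 WT barcodes held 0 UMIs of Iigp1. The aGVHD and BMT values are 0.0281 and 0.0299 times the Iigp1 level of the same library's empty droplets. At least 1 UMI of Iigp1 was seen in 97.7% of LepR stromal barcodes of aGVHD (95.7 to 98.9, Clopper-Pearson), 97.4% of BMT (95.7 to 98.5) and 35.3% of WT (32.3 to 38.3). In granulocytes the shares were 3.67% in aGVHD, 4.32% in BMT and 0 of 87 in WT, which allows a share of barcodes with a UMI of up to 3.45% (3 of 87). Median depths were 12357, 14876 and 5825 UMIs per LepR stromal barcode and 7054, 4297 and 5953 UMIs per granulocyte barcode. After each barcode was thinned to 1000 UMIs, Iigp1 was still seen in 81.6% of LepR stromal barcodes of aGVHD, 72.9% of BMT and 11.5% of WT.

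Nearly every LepR stromal barcode of the transplanted libraries carried the family, while the WT signal was held by a minority. The median barcode had 34 UMIs of the 6 genes in aGVHD, 27 in BMT and 0 in WT. Barcodes with 0 UMIs made up 0.512% of aGVHD, 1.22% of BMT and 52.1% of WT. At least 3 of the 6 genes were seen in 84.7%, 77.1% and 3.09% of barcodes. The tenth of barcodes with the most member UMIs held 29.7% of them in aGVHD, 34.2% in BMT and 59.1% in WT. Depth differs between the libraries, and at 1000 UMIs per barcode the shares with 0 member UMIs were 9.97%, 19.1% and 85.7%.

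**Figure D3:**
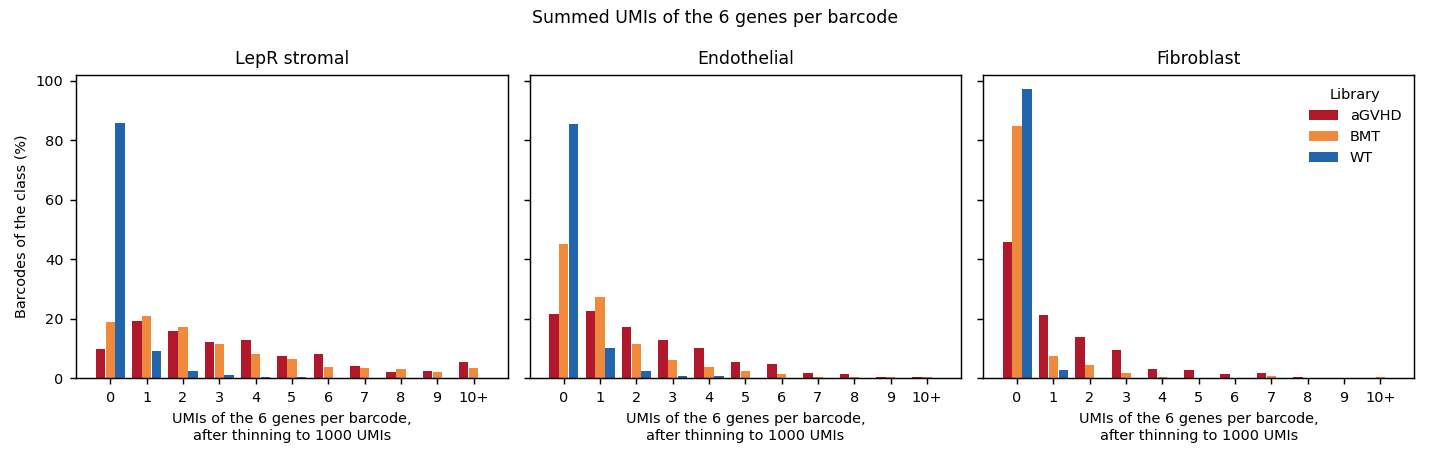
Share of barcodes (y axis, %) by the number of UMIs of the 6 genes (x axis) after thinning each barcode to 1000 UMIs, for aGVHD, BMT and WT in 3 gated classes. In the LepR stromal panel 9.97% of aGVHD and 19.1% of BMT barcodes sit at 0, against 85.7% of WT barcodes.

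Endothelial cells differed from LepR stromal cells in where the step lay: aGVHD stood apart from BMT there as well. The 6 genes summed to 2024 CPM (1980 to 2069) in aGVHD, 1155 (1123 to 1187) in BMT and 224 (205 to 245) in WT. The aGVHD sum was 1.75-fold higher than the BMT sum (1.69 to 1.82), and the BMT sum was 5.15-fold higher than that of WT (4.69 to 5.67). The WT levels of the 2 classes were the same within counting error, at 224 CPM in each. The difference between the classes in either fold has no replicate test.

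Igtp showed the largest aGVHD step of the members in endothelial cells. It was at 536 CPM in aGVHD, 131 in BMT and 17.6 in WT, and aGVHD stood 4.09-fold above BMT (3.73 to 4.49). Irgm1 was at 285, 132 and 33.8 CPM, with an aGVHD over BMT fold of 2.17 (1.96 to 2.40). For Irgm2 the levels were 131, 60.0 and 12.5 CPM and the fold 2.19 (1.88 to 2.54). All 3 regulators were thus higher in aGVHD, and together they were 2.95-fold higher (2.78 to 3.14). BMT over WT, the folds were 3.89 (3.05 to 5.04) for Irgm1, 4.80 (3.22 to 7.42) for Irgm2 and 7.44 (5.36 to 10.6) for Igtp.

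The endothelial effectors split between Iigp1 and the Tgtp pair. Iigp1 was at 964 CPM in aGVHD, 658 in BMT and 149 in WT, a fold of 1.47 for aGVHD over BMT (1.40 to 1.54) and of 4.41 for BMT over WT (3.93 to 4.96). Tgtp1 was at 40.1, 52.4 and 5.10 CPM and Tgtp2 at 67.8, 122 and 6.02 CPM in aGVHD, BMT and WT. Both were lower in aGVHD than in BMT, Tgtp1 by 1.31-fold (1.06 to 1.61) and Tgtp2 by 1.80-fold (1.55 to 2.09), and their sum by 1.61-fold (1.43 to 1.82). BMT over WT, Tgtp1 was 10.3-fold (5.64 to 20.9) and Tgtp2 20.2-fold (11.7 to 38.2) higher, on 11 and 13 UMIs in WT. After thinning, which gives each barcode the same weight, the aGVHD over BMT difference of Tgtp2 shrank to -0.34 on the log2 scale (-0.82 to 0.15). It then no longer cleared counting error, and why it shrank was not tested.

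The make-up of the family therefore differed by class. The regulators held 47.0% (45.9 to 48.1) of the family's UMIs in aGVHD endothelial cells, 27.9% (26.7 to 29.2) in BMT and 28.5% (24.5 to 32.8) in WT. In LepR stromal cells they held 22.0% (21.4 to 22.7), 16.2% (15.8 to 16.7) and 20.7% (18.6 to 22.9). Empty droplets held them at 47.6%, 35.5% and 70.1%. These are shares of UMIs, which were not divided by transcript length, and reads shared by Tgtp1 and Tgtp2 may be missing from them.

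**Figure D4:**
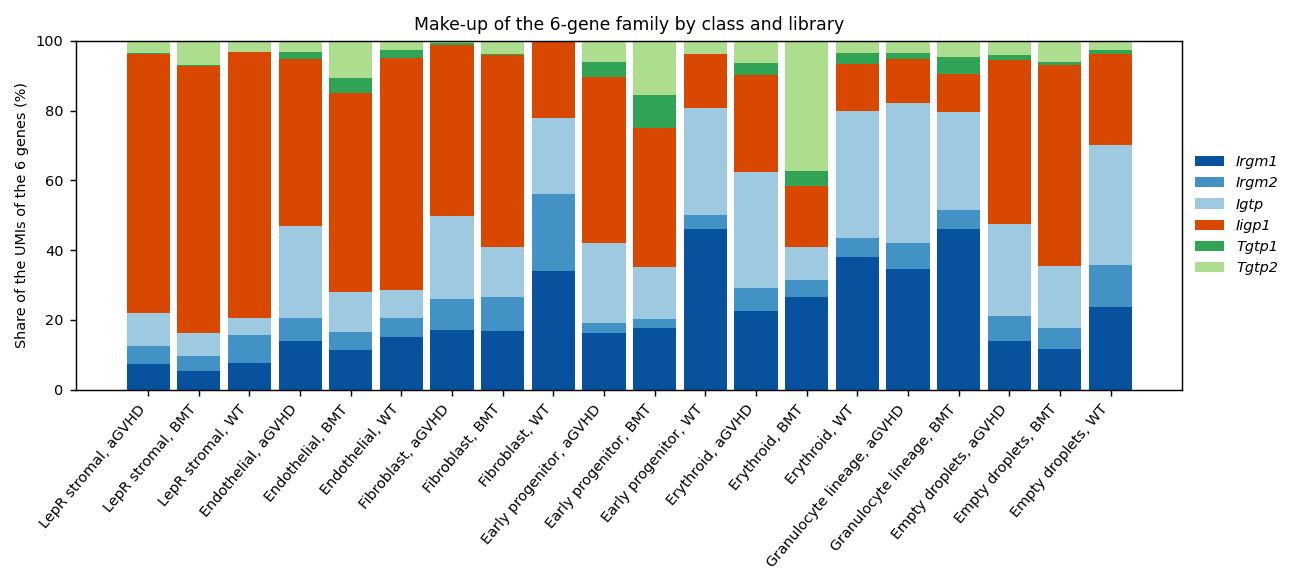
Share of the UMIs of the 6 genes (y axis, %) taken by each member, for classes with 20 or more such UMIs and for empty droplets, by library. Blue shades are the regulators Irgm1, Irgm2 and Igtp, which reach 47.0% in aGVHD endothelial cells and 22.0% in aGVHD LepR stromal cells.

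The split between Tgtp1 and Tgtp2 also differed by cell class within a library and, in several classes, between aGVHD and BMT. Tgtp1 made up 37.2% (32.6 to 41.9) of the pair's UMIs in aGVHD endothelial cells, 30.1% (26.9 to 33.5) in BMT and 11 of 24 UMIs in WT. In LepR stromal cells it made up 9.23% (7.13 to 11.7) in aGVHD, 4.79% (3.85 to 5.88) in BMT and 0 of 44 UMIs in WT. The intervals of the 2 classes do not overlap in aGVHD or in BMT. They treat pooled UMIs as independent and do not cover the spread between barcodes. Early blood progenitors stood near the endothelial share, at 41.6% (34.0 to 49.5) in aGVHD and 38.1% (28.8 to 48.1) in BMT. Empty droplets lay between, at 24.8% and 13.4%. For early progenitors, the barcodes exactly at the marker minimum or lead were 69.6% (aGVHD), 69.8% (BMT) and 73.0% (WT). Blood cells of aGVHD and BMT may also come from donors of another strain. In erythroid cells the share was 33.0% (27.7 to 38.6) in aGVHD and 10.1% (4.18 to 19.8) in BMT. Fibroblasts had 11 of 24 UMIs in aGVHD and 2 of 37 in BMT. Gm12185, whose exons overlap Tgtp1, was at 7.64, 6.81 and 0.159 CPM in LepR stromal cells of aGVHD, BMT and WT. In endothelial cells it was at 4.99, 2.52 and 1.85 CPM. The part of shared sequence in this split was not tested.

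Per barcode, the endothelial family signal was also broadest in aGVHD. The median barcode had 6 UMIs of the 6 genes in aGVHD, 3 in BMT and 0 in WT, at median depths of 2838, 4645 and 3821 UMIs. Barcodes with 0 member UMIs made up 6.59%, 19.3% and 67.0%, and 21.7%, 45.0% and 85.4% after thinning to 1000 UMIs. Igtp was seen in 69.3% of endothelial barcodes of aGVHD (66.4 to 72.1), 36.0% of BMT (32.5 to 39.6) and 5.99% of WT (3.98 to 8.59), against 94 of 626, 82 of 695 and 4 of 87 granulocyte barcodes. Thinned, Igtp was seen in 40.7%, 11.2% and 2.22% of endothelial barcodes, so the order of the libraries stayed as it was.

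Endothelial levels of BMT stood closer to the empty droplets than those of LepR stromal cells. The endothelial sum of the 6 genes was 3.18 times the empty-droplet level in aGVHD, 1.79 times in BMT and 5.49 times in WT. In BMT, Igtp was only 1.14 and Irgm2 1.49 times its empty-droplet level, while Tgtp1 was at 8.63 times. Haemoglobin genes put the free RNA part of endothelial UMIs at 7.69% in aGVHD, 4.96% in BMT and 10.1% in WT, and granule genes put it at 1.01%, 1.02% and 0.802%.

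A rule of size was used to compare the members with all other genes. To be called, a gene needed 50 or more UMIs across the pair of libraries, a fold of 2 or more with an interval clear of 1, and on the higher side a level of 2 or more times that in the library's empty droplets. For aGVHD over BMT, 0 of 6 members were called in LepR stromal cells, where 1.34% of 10557 genes were called higher. In endothelial cells Irgm1, Irgm2 and Igtp were called higher, 3 of 6 members, against 1.45% of 9259 genes. For BMT over WT, Irgm1, Irgm2, Iigp1 and Tgtp2 were called higher in LepR stromal cells (background 2.67%), and Tgtp1 and Tgtp2 in endothelial cells (background 2.49%). Without the comparison with empty droplets, all 12 member and class pairs were called higher in BMT over WT, against 5.87% of genes in LepR stromal and 4.94% in endothelial cells. No member was called lower by this rule in these classes, where 3.47% and 1.76% of genes were lower in aGVHD over BMT and 0.784% and 1.88% in BMT over WT. With a stricter gate, a marker lead of 3, endothelial Tgtp2 passed as lower in aGVHD over BMT, at -1.04 on the log2 scale. With the fold limit set to 1.5, Tgtp2 was called lower in aGVHD over BMT in both classes, beside 7.48% of genes in LepR stromal and 4.78% in endothelial cells. Irgm1 of LepR stromal cells then joined the 3 endothelial regulators as called higher, beside 2.96% and 3.65% of genes.

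**Figure D5:**
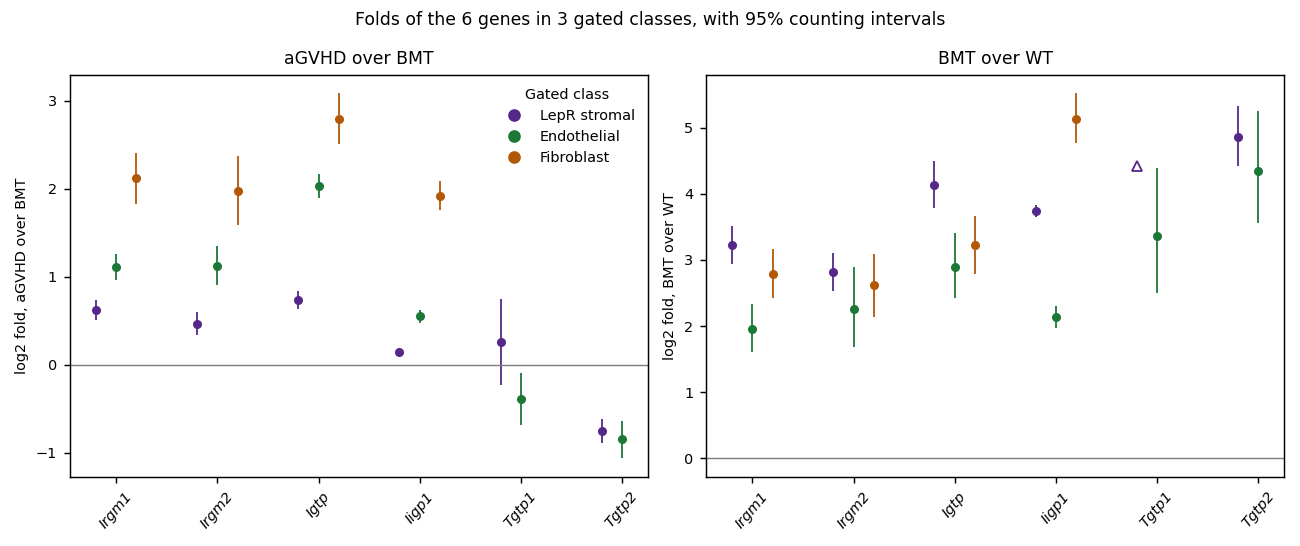
Log2 fold of each member for aGVHD over BMT (left) and BMT over WT (right) in LepR stromal, endothelial and fibroblast gates, with 95% counting intervals. Pairs under 50 UMIs are not drawn, and the open triangle is Tgtp1 in LepR stromal cells against a floor of 3 UMIs in WT. On the left the regulators lie above 0 and Tgtp2 below 0 in LepR stromal and endothelial cells.

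Fibroblasts, matrix-producing stromal cells, showed the widest gap between aGVHD and BMT of these 3 classes. The 6 genes summed to 1281 CPM in 221 aGVHD barcodes, 301 in 229 BMT barcodes and 21.5 in 1511 WT barcodes. The aGVHD sum was 4.25-fold higher than the BMT sum (3.92 to 4.62) and the BMT sum 14.0-fold higher than the WT sum (12.3 to 16.0). Igtp was at 304, 43.7 and 4.69 CPM, Irgm1 at 220, 50.5 and 7.28 CPM, and Iigp1 at 626, 165 and 4.69 CPM. The folds of aGVHD over BMT were 6.94 (5.69 to 8.52) for Igtp, 4.35 (3.56 to 5.32) for Irgm1, 3.94 (3.01 to 5.18) for Irgm2 and 3.79 (3.39 to 4.24) for Iigp1. Irgm1, Irgm2 and Iigp1 were called higher, 3 of 4 members with enough UMIs, against 1.43% of genes, and Igtp in aGVHD stood at 1.81 times the level of its empty droplets.

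Few UMIs of the Tgtp pair were counted in fibroblasts. Tgtp1 and Tgtp2 together had 24 UMIs in aGVHD, 37 in BMT and 1 in WT, or 17.1, 12.5 and 0.0700 CPM, all below the empty-droplet levels of 35.1, 45.4 and 1.56 CPM. For BMT and WT the whole family was below the empty droplets too, at 0.466 and 0.527 times their level, so the BMT over WT fold of fibroblasts is not read as one of the cells. The aGVHD over BMT fold rests on the same BMT level, and the part of free RNA in it was not tested. In BMT the tenth of fibroblast barcodes with the most member UMIs held 65.0% of them, and the median barcode had 1. Exactly at the marker minimum or lead were 39.4% (aGVHD), 27.5% (BMT) and 32.6% (WT) of fibroblast barcodes. Haemoglobin genes put free RNA at 11.3% of fibroblast UMIs in aGVHD, 18.7% in BMT and 7.47% in WT, and granule genes put it at 0.801%, 2.97% and 0.641%. In aGVHD the sum was 2.02 times the empty-droplet level.

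Igtp was also higher in aGVHD than in BMT in Schwann and mural cells, with wider intervals, but lower in chondrocytes. In Schwann cells, the glia of nerves, Igtp was at 589 CPM (472 to 727) in 41 aGVHD barcodes and 116 (67.7 to 186) in 33 BMT barcodes, a fold of 5.07 (2.99 to 9.09). Iigp1 was at 724 and 198 CPM there, but 21 of its 29 BMT UMIs lay in 1 barcode. Tgtp1 had 0 UMIs in Schwann cells of both libraries, beside 19 and 17 UMIs of Tgtp2. In mural cells, which wrap vessels, Igtp was at 97.4 CPM in aGVHD, 39.3 in BMT and 6.39 in WT, and Iigp1 at 220, 218 and 7.31 CPM. Chondrocytes, the cartilage cells, had Igtp at 14.7 CPM in 38 aGVHD barcodes and 77.6 CPM in 36 BMT barcodes, a fold of 0.190 (0.0503 to 0.509). In that comparison 12.7% of genes were lower by fold and interval, 46 of the 67 BMT UMIs of Igtp lay in 1 barcode, and both levels were below the empty droplets. Mural levels of the 6 genes stayed below the empty droplets in every library, at 0.777, 0.640 and 0.638 times their level. Osteoblasts, the bone-forming cells, had 5 barcodes in aGVHD, and their 6-gene sum was 469 CPM in BMT and 40.6 in WT, also below the empty droplets.

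Blood cells held less of the family than LepR stromal and endothelial cells. In aGVHD and BMT they may be of donor origin, so their strain can differ from that of WT as well as the treatment. Early progenitors had Iigp1 at 201 CPM in aGVHD, 150 in BMT and 2.16 in WT, and Irgm1 at 68.8, 67.0 and 6.47 CPM. Their 6-gene sum was 0.667 times the empty-droplet level in aGVHD and 0.587 times in BMT. Erythroid cells had Igtp at 99.0 CPM in aGVHD, 23.4 in BMT and 36.2 in WT, and Tgtp2 at 19.4, 90.5 and 3.63 CPM. Tgtp2 in aGVHD was therefore 4.66-fold below BMT (3.45 to 6.23), on 46 erythroid barcodes in BMT, where it stood at 2.30 times the level of the BMT empty droplets. It was called lower there, as were 13.9% of 7072 genes, and the median of all measured genes of the class was itself at -0.69 on the log2 scale, against -2.22 for Tgtp2. In granulocytes Irgm1 was at 23.1 CPM in aGVHD, 47.0 in BMT and 7.49 in WT, where 6 UMIs were counted. The aGVHD over BMT fold of 0.491 passed the 2-fold limit downwards without the comparison with empty droplets, as did 14.1% of the 5311 genes measured in that class.

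Relatives of the 6 genes were partly split by cell class. Gm4951, the close copy of Iigp1, was at 671 CPM in aGVHD, 546 in BMT and 102 in WT in LepR stromal cells, but at 39.9, 33.2 and 6.49 CPM in endothelial cells. The gene 9930111J21Rik2, whose transcript is 76.6% identical to Tgtp2 over 1243 bases, was at 188, 151 and 47.3 CPM in endothelial cells against 46.5, 64.0 and 2.71 CPM in LepR stromal cells. Of the other family genes and copies with enough UMIs, 5 of 6 were called higher in BMT over WT in LepR stromal cells and 1 of 3 in endothelial cells. The shares of all genes were 2.67% and 2.49%. For aGVHD over BMT, 0 of 6 and 0 of 5 were called, where 1.34% and 1.45% of all genes were called higher. In LepR stromal cells F830016B08Rik was lower in aGVHD than in BMT, at a fold of 0.572 (0.531 to 0.617). So were Gm4841, at 0.728 (0.591 to 0.894), and 9930111J21Rik2, at 0.726 (0.620 to 0.848). Gm4951 was higher, at 1.23 (1.17 to 1.28), and Gm12185 and Irgq did not differ beyond counting error. Ifi47, a further family member added after its values had been seen, was at 315, 251 and 39.4 CPM in LepR stromal and 173, 93.2 and 22.7 CPM in endothelial cells of aGVHD, BMT and WT.

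Several guanylate-binding proteins, larger interferon-induced GTPases that act on the same vacuoles, were also higher in aGVHD than in BMT. Their list has 11 entries, because the symbol Gbp6 stands for 2 gene identifiers. In LepR stromal cells 4 of 10 measured entries were called higher in aGVHD over BMT, and in endothelial cells 6 of 10. Over all genes the shares were 1.34% and 1.45%. BMT over WT, 8 of 10 and 6 of 9 were called higher, against 2.67% and 2.49% of genes. In LepR stromal cells Gbp10 and the measured Gbp6 entry were lower in aGVHD than in BMT, at folds of 0.606 (0.483 to 0.755) and 0.754 (0.665 to 0.854). Gbp2 was at 1061 CPM in aGVHD, 426 in BMT and 35.1 in WT in LepR stromal cells, and at 927, 183 and 32.4 CPM in endothelial cells. Gbp4 was at 652, 294 and 1.59 CPM in LepR stromal and 1318, 440 and 75.5 CPM in endothelial cells. Their median log2 fold of aGVHD over BMT was 0.36 in LepR stromal and 1.28 in endothelial cells, where the median of all measured genes was -0.14 and -0.04.

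Upstream of the family, receptor and kinase genes differed by less than 2-fold in either comparison in LepR stromal and endothelial cells. Of 7 interferon receptor and kinase genes, 0 were called in either comparison in either class. Of all genes in LepR stromal and endothelial cells, 1.34% and 1.45% were called higher in aGVHD over BMT, and 3.47% and 1.76% lower. For BMT over WT the shares were 2.67% and 2.49% higher, and 0.784% and 1.88% lower. A count of 0 of 7 is near these shares. Ifnar2, a chain of the type I interferon receptor and the gene of this list with the most UMIs in LepR stromal cells, was at 363 CPM in aGVHD, 319 in BMT and 274 in WT. Ifngr1, a chain of the interferon gamma receptor named for its role, was at 248, 256 and 157 CPM there and at 255, 250 and 172 CPM in endothelial cells. Its BMT over WT fold was 1.63 (1.52 to 1.76) in LepR stromal and 1.46 (1.29 to 1.64) in endothelial cells.

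Among the interferon transcription factors, Stat2, which acts in type I signalling, was called higher in BMT over WT in LepR stromal cells. Stat2 was at 94.7 CPM in BMT against 28.7 CPM in WT, a fold of 3.30 (2.80 to 3.90). Of all genes, 2.67% were called higher there. Irf1, an interferon-induced factor, was at 334 CPM in aGVHD, 392 in BMT and 340 in WT in the same cells. In endothelial cells Irf1 was at 582, 466 and 200 CPM in aGVHD, BMT and WT. There 0 of 7 factors were called in BMT over WT, and 6 passed without the comparison with empty droplets, as did 4.94% of genes. For aGVHD over BMT, Irf8 was called higher in endothelial cells, at 195 CPM in aGVHD against 80.6 CPM in BMT. It was 1 of 7 factors there, against 1.45% of genes, and 0 of 7 were called in LepR stromal cells, against 1.34%. Of 4 interferon genes, Ifng, Ifnb1, Ifna2 and Ifna4, none reached 50 UMIs in these classes.

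Of 5 inhibitors of interferon signalling, 0 were called in LepR stromal or endothelial cells in either comparison. By direction, 0.784% to 3.47% of all genes were called in these comparisons. Without the comparison with empty droplets, 1 passed in BMT over WT in LepR stromal cells and 2 in endothelial cells. Of all genes, 5.87% and 4.94% passed as higher. Usp18, an interferon-induced brake on the type I receptor, was at 35.4 CPM in aGVHD, 46.5 in BMT and 5.90 in WT in LepR stromal cells, a BMT over WT fold of 7.88 (5.62 to 11.4), and its endothelial fold was 6.61 (3.59 to 13.5). Socs1, an inhibitor of the receptor kinases, was at 120 CPM in aGVHD, 71.0 in BMT and 28.3 in WT in endothelial cells. Its BMT over WT fold was 2.51 (1.90 to 3.36) there and 1.32 (1.13 to 1.55) in LepR stromal cells. Socs3, a cytokine-induced inhibitor, was at 390 CPM in aGVHD, 617 in BMT and 970 in WT in LepR stromal cells and at 794, 781 and 519 CPM in endothelial cells. Of 10 autophagy conjugation genes, whose products help load the GTPases onto vacuoles, 0 were called higher. The share of all genes called higher was 1.34% to 2.67%. Gabarap was at 534, 456 and 510 CPM in LepR stromal cells of aGVHD, BMT and WT. Map1lc3a was the single one called lower, in BMT over WT in LepR stromal cells, at 216 CPM in BMT against 445 CPM in WT. There 0.784% of all genes were called lower.

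Across 30 points of class and library, the genes outside the family most like the 6-gene sum were Gbp6 (Pearson r = 0.94), the chemokine gene Cxcl9 (0.92), Gbp7 (0.90), Olfr56 (0.89) and Gbp5 (0.88). Olfr56 lies on the strand opposite Tgtp1 and Tgtp2, with 0 exon bases shared. Within the family, Gm4951 reached 0.91 and Ifi47 0.90. Likeness was taken on log2(CPM + 1) over points with 50 or more barcodes, among 10742 genes with 500 or more UMIs. Points of 1 library share its depth and free RNA, so these values are a description.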

How the data were processed

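The deposited matrices hold whole-number UMI counts per gene and barcode, which the authors made with Cell Ranger and the mm10 build, per the submitters' processing notes, and with Cell Ranger 3.1.0, per the file headers. They list all barcodes, not only called cells. Whether the kit read the 3′ or the 5′ end was not found in the labels.

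Barcodes were called at 1000 or more UMIs, 500 or more genes and under 10% mitochondrial UMIs, and those with at most 100 UMIs were taken as empty droplets. A called barcode entered 1 of 16 classes when it held at least 3 of the class's markers, 2 more than for any other class. The granulocyte lineage was gated on granule genes at 5% of UMIs. Left out were barcodes with 3 or more markers of a class but a lead under 2 (707 in aGVHD, 454 in BMT, 1122 in WT). Granulocyte barcodes that also held 3 markers of another class (62, 33 and 15) and barcodes meeting no gate were left out too. This also removes many doublets. Scrublet (scanpy 1.11.5) marked 248, 105 and 407 barcodes, removed only as an alternative.

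UMIs were summed per class and library. Folds carry exact conditional intervals, levels exact Poisson and shares Clopper-Pearson intervals (scipy 1.17.1), all for counting error only. With 1 library per group no test was made. The fold and call steps were tested on simulated Poisson counts with no free RNA and no spread between barcodes. That check did not cover the comparison with empty droplets. Transcripts were aligned with Biopython 1.88. Genes named are the 6 members in classes of 20 or more barcodes, the genes of each list with the most UMIs, and the 5 genes outside the family most like the members. Further genes were chosen for their role or after their values were seen. They are Gm12185, F830016B08Rik, Gm4841, Irgq, Ifngr1, Irf8, Stat2, Usp18, Socs1, Gbp10, the Gbp6 entry with its folds, and Map1lc3a. The members, lists and rules were chosen with earlier results of these data known. Gm12250 is not analysed here. A transcription factor of the lists is not reported here.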

Additional observations from a re-analysis of the deposited data

Results flagged for a closer look

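Irgm1, Igtp and Iigp1 each differed in opposite directions in 2 classes of the same pair of libraries, and the difference between classes was not tested, since each group is 1 library. In fibroblasts Irgm1 was at 220 CPM in aGVHD, against 50.5 CPM in BMT, a fold of 4.35 (3.56 to 5.32), while the granulocyte lineage had 23.1 CPM in aGVHD, against 47.0 CPM in BMT, a fold of 0.491 (0.385 to 0.626). In the granulocyte lineage 14.1% of genes were lower by fold and interval, and the median of all genes was -0.28 on the log2 scale. In granulocytes Irgm1 stood at 0.260 times (aGVHD) and 0.632 times (BMT) the empty-droplet level, and in fibroblasts at 2.47 and 0.679 times, and the part of free RNA in either fold was not tested. Igtp was 6.94-fold higher in fibroblasts (5.69 to 8.52) and had a fold of 0.190 (0.0503 to 0.509) in chondrocytes, at 14.7 CPM in aGVHD against 77.6 CPM in BMT, where 46 of 67 BMT UMIs lay in 1 barcode. Iigp1 was 9.98-fold higher (3.31 to 49.3) in T and NK cells, at 203 CPM in aGVHD against 20.4 CPM in BMT, where 74 of 91 aGVHD UMIs lay in 1 barcode. In megakaryocytes its fold was 0.483 (0.358 to 0.656), at 51.7 CPM in aGVHD against 107 CPM in BMT, where 36 of 69 BMT UMIs lay in 1 barcode.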

How the results depend on the processing

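No paired analysis was possible because each group is 1 library, and for the same reason no library could be left out. On the log2 scale, the sum of the 6 genes was 0.19 (aGVHD over BMT) and 3.73 (BMT over WT) in LepR stromal cells and 0.81 and 2.36 in endothelial cells. All 4 kept their direction under every alternative run, with ranges of 0.18 to 0.33, 3.51 to 3.88, 0.74 to 1.73 and 1.51 to 2.50. The values that moved beyond counting error were as follows. In LepR stromal cells the aGVHD over BMT value was 0.33 with median-ratio scaling, 0.24 as the mean over barcodes and 0.24 after thinning to 1000 UMIs. The BMT over WT value there was 3.62 with free RNA subtracted, 3.60 with median-ratio scaling, 3.57 as the mean over barcodes, 3.51 after thinning and 3.88 with a marker lead of 1. In endothelial cells the aGVHD over BMT value was 0.74 with a lead of 3, 0.76 with a lead of 1, 0.87 without the highest Scrublet scores, 0.92 as the mean over barcodes and 0.95 after thinning. Splits of the endothelial gate, the lead of 1 and a subtraction by granule genes alone, which moved no value beyond counting error, were chosen after seeing the data. Barcodes with Gpihbp1 but no Selp, Vwf or Ackr1 gave 0.90. Barcodes with Selp, Vwf or Ackr1 but no Gpihbp1, only 12 in aGVHD, 13 in BMT and 110 in WT, gave 1.73 and 1.51. There the sign of Tgtp1 (3.49, interval 0.53 to 8.98) and Tgtp2 (1.04, -0.55 to 2.70) turned, on 7 and 9 UMIs in aGVHD and 1 and 7 in BMT, too few to be measured by the 50-UMI minimum. The cause was not tested. Of 12 member and class pairs, 3 were called in aGVHD over BMT and 6 in BMT over WT. A fold limit of 1.5 gave 6 in aGVHD over BMT, and leaving out the comparison with empty droplets gave 12 in BMT over WT. A lead of 3 gave 4 in aGVHD over BMT, 1 of them lower (endothelial Tgtp2), and thinning gave 5 in BMT over WT. After thinning, which gives each barcode the same weight, endothelial Tgtp2 of aGVHD over BMT was -0.34 (-0.82 to 0.15). The drop was smaller than the unthinned fold of 0.557 (0.479 to 0.645) and no longer cleared counting error. Why it shrank was not tested. Among single members, 239 values stayed within counting error, 36 moved and 2 reversed.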

Other observations

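Single barcodes held much of the family in several small or low classes. In WT osteoblasts 88 of 107 UMIs of the 6 genes lay in 1 of 145 barcodes, and in BMT osteoblasts 267 of 1508 lay in 1 of 76. In BMT chondrocytes 104 of 151 UMIs lay in 1 of 36 barcodes, and 1 barcode held 23 of the 24 Tgtp1 UMIs of that class. In aGVHD T and NK cells 1 of 64 barcodes held 74 of the 91 Iigp1 UMIs.

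In WT, erythroid cells held the 6 genes at 2.45 times the empty-droplet level, with Irgm1 at 38.0 CPM and Igtp at 36.2 CPM. Regulators made up 79.7% of the family's UMIs there. Granulocytes were also rich in regulators, at 82.2% of the family's UMIs in aGVHD and 79.5% in BMT, with Iigp1 near 0.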
